A study of Mus musculus with 56 samples.

Results

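The genes described here are 47 genes of the DNA damage response and of DNA repair, chosen by name: the damage kinases, the proteins that sense and mark broken DNA, and the enzymes of the repair pathways. Of the 47, 46 were found among the 18194 genes of the array's platform annotation, where H2afx, the histone variant that is phosphorylated at broken DNA, is listed as H2ax. Xrcc2 was not found in that annotation. Each gene was read from its probe set with the highest mean over the 56 arrays. Bard1, the partner protein of Brca1, exceeded the median of all values (5.83, log2) on 4 arrays and failed the filter, which asked for at least 6. The tests therefore cover 45 of the 47 genes, among 12482 genes tested in all.

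Cells answer broken DNA with kinases that halt the cell cycle and call repair. Atm acts at broken ends and Atr at stretches of bare single-stranded DNA, and each passes the signal to a checkpoint kinase, Chek2 or Chek1. Breaks are then either copied from the sister chromatid by homologous recombination, which works in the S and G2 phases, or rejoined by end joining, which works through the cycle, while base excision, nucleotide excision and mismatch repair correct damage to single bases or short stretches. Mammary tissue is known for its dependence on Brca1 and Brca2, whose loss predisposes to breast cancer.

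The 56 tumors arose in the mammary gland from transplanted fragments of p53-null epithelium, so in every group the transplanted cells lack p53, the transcription factor that the damage kinases activate. The fragments themselves received no radiation. They were transplanted into the inguinal fat pads of female BALB/c hosts that had been cleared of their own epithelium at 3 weeks of age, and 3 days before the transplant each host received radiation or a sham treatment. Hosts were wild type (9 tumors from sham-irradiated and 23 from irradiated hosts) or heterozygous for Tgfb1 (6 from sham-irradiated and 18 from irradiated hosts). The genotype of Tgfb1 refers to the host, and no dose was named in the labels. The comparison asks whether repair genes differed, by the state of the host, in tumors grown from epithelium that was never irradiated. The arrays read bulk tumors, which also hold cells of the host, and in the irradiated groups the host was irradiated. Values are log2 expression after RMA, which corrects background, equalises the array distributions and combines the probes of each probe set. The arrays of the 2 host genotypes have separate distributions, with array medians of 5.92 to 6.00 and 5.57 to 5.71, so no level is compared between host genotypes.

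The arrays differ in RNA quality in ways that touch the results below. The mean of the 18S ribosomal RNA control was below 11 on 4 of 9 sham and 2 of 23 irradiated arrays of wild-type hosts, and on 1 of 6 and 2 of 18 arrays of heterozygote hosts. The difference between 3' and 5' probe sets of the Actb and Gapdh controls, which grows as RNA is degraded, was highest in tumor 57 of the irradiated wild-type group (0.91, against a group median of 0.18). The mean of 12 epithelial markers had group medians of 11.28 to 11.71, and was lowest at 6.62 in tumor 59 of the irradiated wild-type group, where the mean of 6 muscle genes was 11.39. The labels do not say which tumors share a host or a donor, so the p-values below measure only the spread between these tumors. These are bulk tumors, in which fewer cells of a type and less RNA per cell cannot be told apart.

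Host irradiation was followed by no called change in any of the 45 repair genes. In wild-type hosts 0 of 45 genes passed an adjusted p of 0.05 (limma, Benjamini-Hochberg over all genes), where 0% of all genes were called, and 3 of 45 had an unadjusted p under 0.05, where 7.08% of all genes did. In heterozygote hosts 0 of 45 passed, again beside 0% of all genes, and 1 of 45 had an unadjusted p under 0.05, against 5.83% of all genes. Averaged over host genotypes 0 of 45 passed, where 0.00801% of all genes (1 gene) were called, and 3 of 45 had an unadjusted p under 0.05 against 7.77%. The shares of repair genes at an unadjusted p under 0.05 thus lay near or under those of all genes. The median log2 difference of the 45 genes, irradiated minus sham, was 0.0057 in wild-type hosts, -0.093 in heterozygote hosts and -0.040 averaged, beside 0.0016 for all genes averaged. For 43 of the 45 genes the 95% interval of the averaged difference lay within 1.5-fold in either direction, and this held for 40 genes in wild-type and 32 in heterozygote hosts. In simulated data the same test recovered 51.2% of genes changed 1.5-fold in wild-type hosts, 36.4% in heterozygote hosts and 65.5% averaged. There 1000 genes were changed 1.5-fold and 1000 2-fold over 10 simulations. With so many changed genes the adjusted threshold was easier to pass than in the measured data. A repair gene changed alone would be recovered less often than these shares. The values of irradiated and sham groups overlapped for all 45 genes in both host genotypes. The share over all genes was not counted, so this overlap is a description and not a trait of repair genes.

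**Figure D1:**
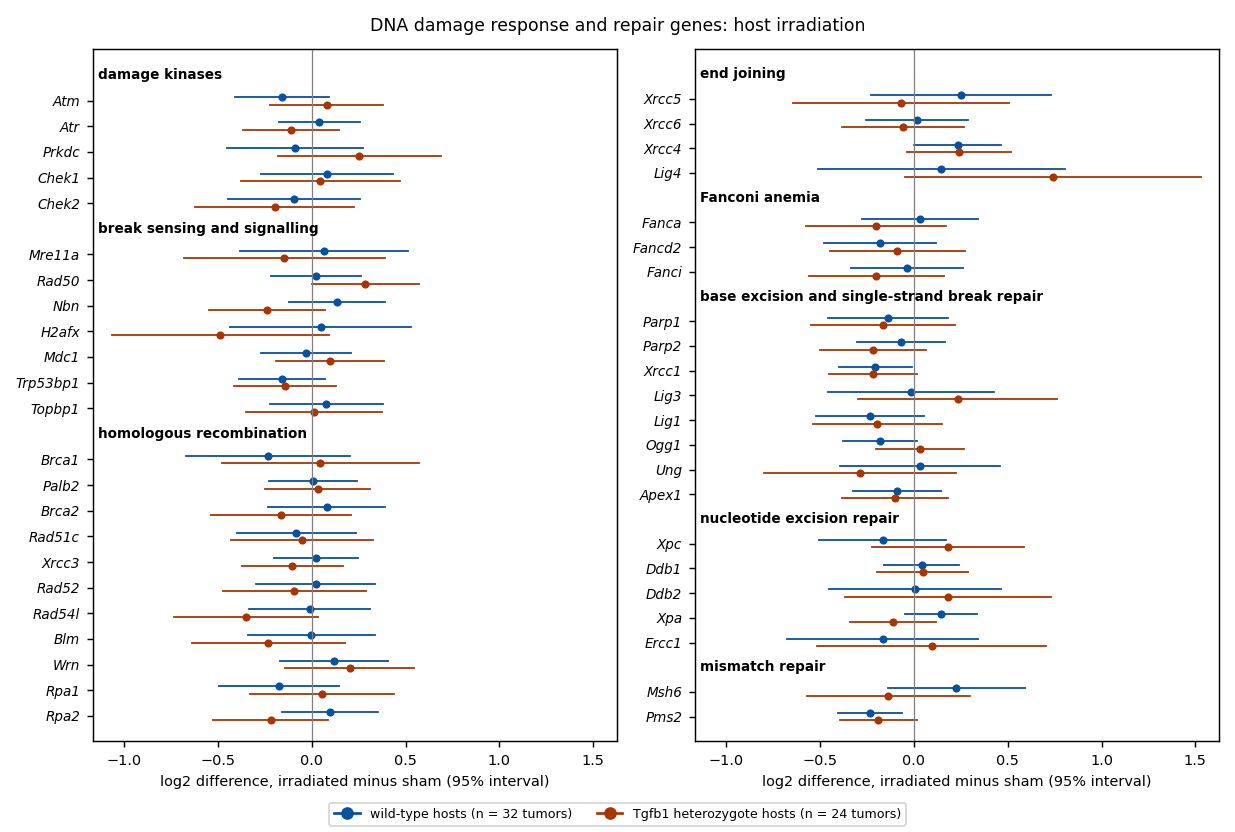
Log2 difference, irradiated minus sham host, for the 45 repair genes tested, grouped by role, in wild-type hosts (blue, 32 tumors) and Tgfb1 heterozygote hosts (brown, 24 tumors). Points are limma estimates and lines their unadjusted 95% intervals; the estimates lie between -0.49 and 0.74, and the interval of Lig4 in heterozygote hosts reaches 1.53.

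The mismatch repair gene Pms2, whose protein nicks the strand to be repaired, had the lowest p of the 45 in wild-type hosts and averaged. In wild-type hosts its log2 level ran from 8.13 over a median of 8.23 to 8.79 in sham tumors, and from 7.85 over 8.10 to 8.53 in irradiated ones. In heterozygote hosts it ran from 7.84 over 7.90 to 8.47 in sham tumors and from 7.32 over 7.85 to 8.09 in irradiated ones. Irradiated tumors were mostly at the lower end, with 5 of 23 and 6 of 18 above the sham median of their host genotype. The differences were -0.23 (SE 0.086, adjusted p = 0.552) and -0.19 (SE 0.10, adjusted p = 0.874), and -0.21 averaged (SE 0.067, adjusted p = 0.370). A second, dimmer probe set of Pms2 (mean 5.81) gave -0.050 averaged. Without tumor 15 of the heterozygote sham group, the highest of that group, the Pms2 difference in those hosts was -0.093. Msh6, which recognises mismatches, differed by 0.23 in wild-type hosts (SE 0.18) with 17 of 23 tumors above the sham median.

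Among the base excision and single-strand break genes, 7 of 8 had a negative averaged difference. Xrcc1, the scaffold on which that pathway's enzymes assemble, ran from 8.47 over 8.86 to 9.27 in sham and from 8.08 over 8.61 to 9.22 in irradiated tumors of wild-type hosts. In heterozygote hosts it ran from 8.32 over 8.46 to 8.63 in sham and from 7.86 over 8.24 to 8.59 in irradiated tumors. Most irradiated tumors lay under the sham median, with 3 of 23 and 5 of 18 above it. The averaged difference of Xrcc1 was -0.21 (SE 0.076, adjusted p = 0.438). Lig1, the ligase of replication and long-patch repair, differed by -0.21 averaged (SE 0.11, adjusted p = 0.661), and Ogg1, the glycosylase for oxidised guanine, by -0.18 in wild-type hosts (SE 0.098, adjusted p = 0.733). Without tumor 64 of the wild-type sham group the Ogg1 value was -0.089, and without the arrays of low 18S the wild-type differences of Xrcc1, Lig1 and Ogg1 were -0.077, -0.085 and -0.055. With a score of mitosis genes, described below, as a covariate the averaged Lig1 difference was -0.11.

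Of the end joining genes 3 of 4 had a positive averaged difference. Xrcc4, which holds Lig4 at the ends to be joined, ran from 7.43 over 7.69 to 8.47 in sham and from 7.43 over 8.0 to 8.40 in irradiated tumors of wild-type hosts. In heterozygote hosts it ran from 7.18 over 7.38 to 7.92 in sham and from 7.12 over 7.77 to 8.29 in irradiated tumors. Nearly all irradiated tumors were above the sham median, 22 of 23 and 16 of 18, but within the range of the sham tumors or close to it. The averaged difference was 0.24 (SE 0.090, adjusted p = 0.477), and a second probe set of Xrcc4 gave 0.32. Xrcc4 lies on chromosome 13, where it is the only one of the 45 genes. Lig4, the ligase itself, differed by 0.74 in heterozygote hosts (SE 0.39, adjusted p = 0.874) with 13 of 18 tumors above the sham median, and its mean there rests on the few very high tumors described below. Xrcc5, the larger subunit of the end-binding Ku complex, differed by 0.25 in wild-type hosts (SE 0.24), by 0.13 without tumor 46 of the sham group and by 0.046 with array weights. Adjusted for the 18S control, the wild-type difference of Xrcc4 was 0.12, and with the 3' minus 5' covariate its heterozygote difference was 0.13.

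Of the genes that sense breaks, Rad50, the long coiled-coil subunit of the Mre11 complex, ran in heterozygote hosts from 7.67 over 8.09 to 8.58 in sham and from 7.98 over 8.43 to 8.81 in irradiated tumors. The difference was 0.29 (SE 0.14, adjusted p = 0.854), with 15 of 18 irradiated tumors above the sham median, while in wild-type hosts 9 of 23 were. H2afx differed by -0.49 in heterozygote hosts (SE 0.29), with 7 of 18 above the sham median, and by -0.18 without tumor 58 of the sham group. Trp53bp1, which steers breaks towards end joining, differed by -0.15 averaged (SE 0.088, adjusted p = 0.719). Rad54l, a translocase of homologous recombination, differed by -0.35 in heterozygote hosts (SE 0.19, adjusted p = 0.882), and the helicase gene Wrn by 0.16 averaged (SE 0.11). With the mitosis score as a covariate the Rad54l value was -0.17, and without tumor 58 the Wrn value was 0.11. The H2afx value in heterozygote hosts was -0.25 with the mitosis score and -0.80 with the 3' minus 5' difference as a covariate. None of these genes passed the test.

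The test of whether host genotypes differ in the irradiation effect also called 0 of 45 genes, beside 0% of all genes, and 0 of 45 had an unadjusted p under 0.05, against 4.85% of all genes. The differences of effects (heterozygote minus wild type) with the lowest p were -0.37 for Nbn (SE 0.20), the third subunit of the Mre11 complex, -0.26 for Xpa (SE 0.15), which verifies damage in nucleotide excision repair, -0.32 for Rpa2 (SE 0.20), which coats single-stranded DNA, and -0.53 for H2afx (SE 0.38). In the other direction they were 0.26 for Rad50 (SE 0.19), 0.21 for Ogg1 (SE 0.15), 0.35 for the damage sensor gene Xpc (SE 0.26) and 0.34 for Prkdc (SE 0.28), the catalytic kinase of end joining. All 8 had an adjusted p of 0.999. With 1 tumor left out, the difference was -0.23 for H2afx (without heterozygote sham tumor 58), 0.12 for Ogg1 (wild-type sham 64), 0.21 for Xpc (heterozygote sham 15) and 0.17 for Rad50 (heterozygote sham 52). Without the arrays of low 18S the difference was 0.043 for Rad50, 0.073 for Ogg1 and 0.19 for Prkdc. The probe set of largest variance gave 0.64 for Ogg1 and -0.10 for Rpa2. Beside these results, 26 of 28 mitosis genes had a negative averaged difference, with a median of -0.21, and none of the 28 passed the test. With the mitosis score as a covariate, 0 of 45 repair genes were called as well. Of 12 epithelial markers 11 had a positive averaged difference (median 0.30) and of 9 fibroblast markers 0 did (median -0.33). None of these markers passed the test, and with the epithelial score as a covariate 0 of 45 repair genes were called.

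**Figure D2:**
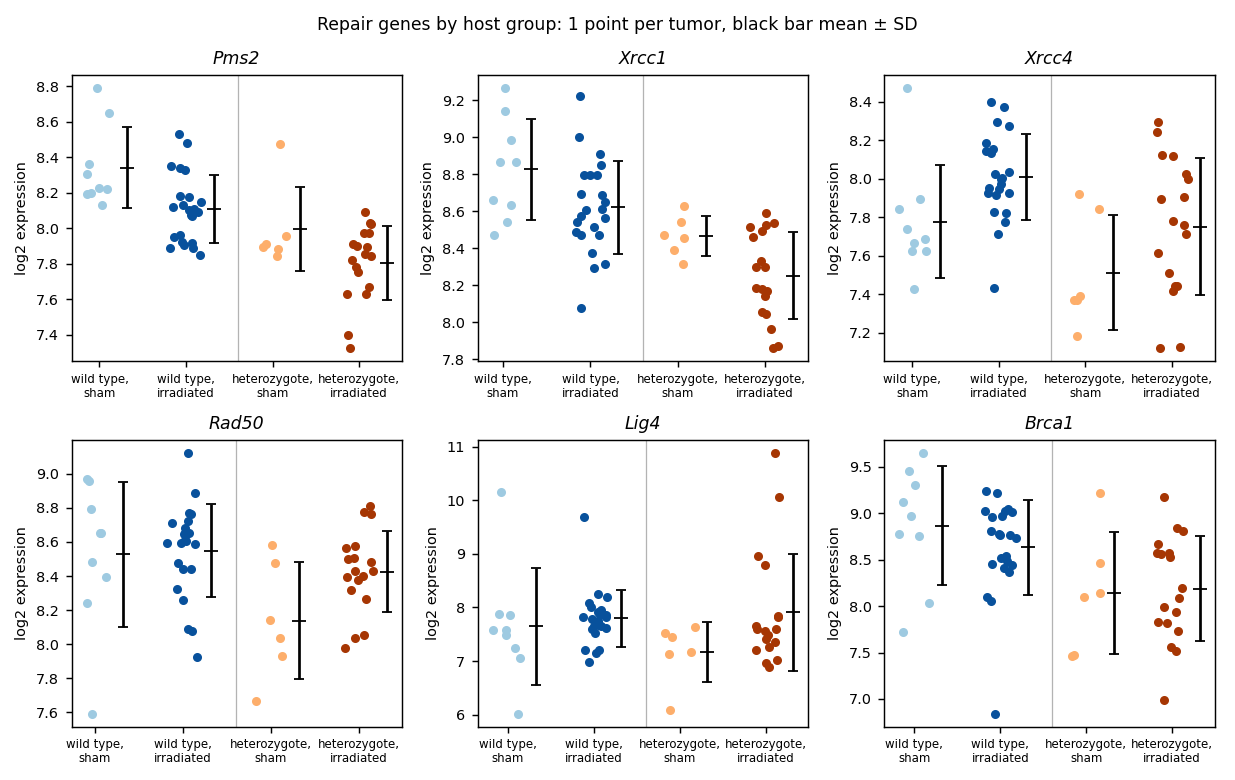
Log2 expression of 6 repair genes in every tumor, by host genotype and irradiation; points are tumors (9, 23, 6 and 18 per group) and black bars the mean ± SD. Groups overlap for each gene; for Xrcc4, 22 of 23 and 16 of 18 irradiated tumors exceed the median of the sham tumors, and Lig4 has single tumors up to 10.88.

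The other genes of these pathways gave the same picture. Of 100 further repair and checkpoint genes measured, 0 were called after irradiation in either host genotype, averaged or in the difference. The lowest p averaged belonged to Gadd45a, a damage-induced gene singled out after its values were seen, at 0.89 (SE 0.23, adjusted p = 0.194).

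Between tumors of one group, many repair genes moved with the mitotic genes. A mitosis score was taken as the mean log2 level of 28 mitosis genes such as Cdk1, Plk1 and Bub1, none of which is among the 47, and a slope was fitted within groups, as log2 change of a gene per log2 of score. The averaged slope was called for 27 of 45 repair genes, where 11.7% of 12454 genes were called. Of these 27, 26 had a positive slope, where 8.65% of all genes had a called positive slope, and 1, Ercc1, a negative one, where 3.06% of all genes did. The median slope of the 45 was 0.274, beside -0.0009 for all genes. In wild-type hosts 23 of 45 were called (9.16% of all genes), 22 of them positive (6.91% of all genes) and 1 negative (2.26%), and in heterozygote hosts 11 of 45, all positive (2.03% of all genes called, 1.86% positive and 0.169% negative). Without tumor 4 of the irradiated heterozygote group, that count was 5. The slopes of the 2 host genotypes differed for 0 of 45 genes (0% of all genes), with 0 of 45 at an unadjusted p under 0.05 (1.63% of all genes). As a check of the score, 20 of 23 genes of DNA replication had a called positive slope.

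Array quality moves with this score. The 3' minus 5' difference and the score had r = -0.663 over the 24 tumors of heterozygote hosts (rho = -0.515, permutation p = 0.00064, adjusted over 12 relations 0.00768) and -0.435 without the 2 tumors farthest in the quality measure. In wild-type hosts r was -0.538 over 32 tumors (rho = -0.207, permutation p = 0.0203, adjusted 0.122) and -0.0313 without the 2 farthest. Tumors 57 of the irradiated wild-type and 4 of the irradiated heterozygote group have the lowest scores (7.89 and 7.80), the highest 3' minus 5' differences of their groups (0.91 and 0.56) and 18S values below 11. Without both, 14 of 45 genes were called in the averaged slope, where 7.97% of all genes were. Without the 9 arrays of low 18S it was also 14 (7.23% of all genes), and with the 3' minus 5' difference as a covariate 18. In all 4 fits 13 genes were called, each with a positive slope: Brca1, H2afx, Chek1, Rad54l, Blm, Fancd2, Topbp1, Fanci, Lig1, Rad51c, Rpa2, Nbn and Palb2. The calls of Atm, Atr, Chek2, Rad50, Ung, Msh6, Xrcc6 and Ercc1 were lost in each of the 3 other fits. Of 6 endothelial markers 1 had a called negative slope (median of the 6, -0.58), while 0 of 9 fibroblast, 0 of 6 muscle and 0 of 12 epithelial markers were called.

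**Figure D3:**
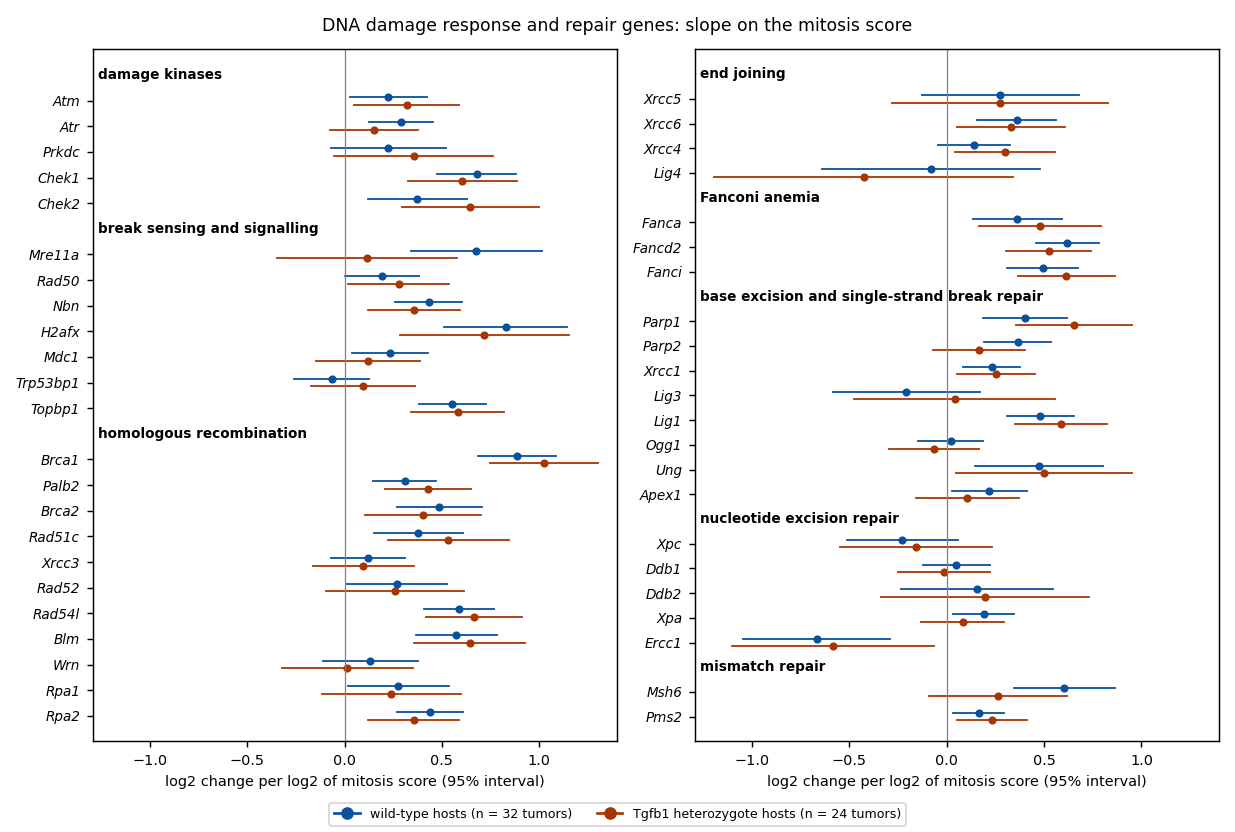
Slope of each repair gene on the mitosis score within groups, by role, in wild-type hosts (blue, 32 tumors) and Tgfb1 heterozygote hosts (brown, 24 tumors), with unadjusted 95% intervals. Brca1 has the highest slope in both (0.88 and 1.02), the 3 Fanconi anemia genes lie above 0 and Ercc1 lies below 0 in both.

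Homologous recombination held the steepest member. Brca1, which directs broken ends towards recombination, ran in wild-type hosts from 7.72 over 8.96 to 9.65 in sham and from 6.84 over 8.77 to 9.23 in irradiated tumors. In heterozygote hosts it ran from 7.46 over 8.12 to 9.21 in sham and from 6.99 over 8.14 to 9.18 in irradiated tumors. Its level went nearly 1 to 1 with the mitosis score: the averaged slope was 0.95 (SE 0.085, adjusted p = 1.22e-12), at 0.88 in wild-type and 1.02 in heterozygote hosts. The other probe sets of Brca1 that passed the filter had averaged slopes of 0.94 and 1.03. Averaged slopes of Rad54l were 0.63 (SE 0.076), of the helicase gene Blm 0.61 (SE 0.088), of Rad51c, a relative of the strand exchange protein, 0.46 (SE 0.096), of Brca2, which loads that protein, 0.45 (SE 0.092), of Rpa2 0.40 (SE 0.072) and of Palb2, which links Brca1 to Brca2, 0.37 (SE 0.068). In all 7 of 11 recombination genes had a called positive slope, where 8.65% of all genes did. The call of Brca2 was lost without the arrays of low 18S and without tumors 57 and 4. Xrcc3 at 0.11 and Wrn at 0.07 had the lowest slopes of the group.

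Among the kinases 4 of 5 had a called positive slope, where 8.65% of all genes did, and of these only Chek1 was called in all 4 fits. Chek1, which restrains entry into mitosis when replication stalls, ran from 7.09 over 8.36 to 9.00 in sham and from 7.62 over 8.33 to 9.26 in irradiated tumors of wild-type hosts. In heterozygote hosts it ran from 7.44 over 7.91 to 8.21 and from 7.08 over 8.03 to 8.54. Low levels of Chek1 came with low mitosis scores, with an averaged slope of 0.64 (SE 0.087, adjusted p = 1.28e-07). Chek2 had 0.51 (SE 0.11), Atm 0.27 (SE 0.083) and Atr 0.22 (SE 0.069). Prkdc had 0.29 (SE 0.13, adjusted p = 0.137).

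Of the sensing and signalling genes 4 of 7 had a called positive slope. H2afx ran from 9.28 over 9.97 to 11.26 in sham and from 8.39 over 10.06 to 11.78 in irradiated tumors of wild-type hosts, and in heterozygote hosts from 9.85 over 10.04 to 11.87 and from 8.83 over 9.85 to 10.61. Its averaged slope was 0.77 (SE 0.13, adjusted p = 2.67e-05). That of Topbp1, the activator of Atr, was 0.57 (SE 0.074, adjusted p = 4.74e-08), that of Nbn 0.39 (SE 0.073) and that of Rad50 0.23 (SE 0.080). Trp53bp1 had 0.01 (SE 0.082, and -0.012 after quantile normalization of all arrays), while its other probe sets that passed the filter gave 0.19 and 0.24. Mre11a, the nuclease of the break-sensing complex, had slopes of 0.68 in wild-type hosts (SE 0.17, adjusted p = 0.00508) and 0.12 in heterozygote hosts (SE 0.23), and the difference did not pass the test (-0.56, SE 0.28). The heterozygote slope includes tumor 6 of the irradiated group, described below. It had the highest Mre11a of that group (10.55) at a mitosis score of 8.83 (group median 9.24), and its part in the slope was not tested.

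All 3 Fanconi anemia genes, which act on crosslinked DNA, had called positive slopes, where 8.65% of all genes did. The call of Fanca was lost without the arrays of low 18S and without tumors 57 and 4. Fancd2, the protein that is ubiquitinated at crosslinks, ran from 6.41 over 6.96 to 7.59 in sham and from 5.99 over 6.73 to 7.54 in irradiated tumors of wild-type hosts, and from 6.41 over 6.73 to 7.11 and from 5.65 over 6.61 to 7.09 in heterozygote hosts. Its averaged slope was 0.57 (SE 0.067, adjusted p = 4.04e-09), beside 0.55 (SE 0.077) for its partner Fanci and 0.42 (SE 0.096) for Fanca. Of the base excision and single-strand break genes 5 of 8 were called, all positive: Lig1 at 0.53 (SE 0.073), Parp1, the sensor of nicks, at 0.53 (SE 0.091), Ung, which removes uracil, at 0.49 (SE 0.14), Parp2 at 0.27 (SE 0.073) and Xrcc1 at 0.24 (SE 0.062). Of these only Lig1 was called in all 4 fits. Ogg1 (-0.02, and 0.0017 after quantile normalization of all arrays) and Lig3 (-0.08, and 0.094 with its probe set of largest variance) were the lowest of that group, and neither was called. Both mismatch genes were called, Msh6 at 0.43 (SE 0.11) and Pms2 at 0.20 (SE 0.056), while the dimmer probe set of Pms2 gave -0.012. The Msh6 call was lost in each of the 3 other fits. That of Pms2 was lost without the arrays of low 18S and without tumors 57 and 4. Of the end joining genes 1 of 4 was called, Xrcc6 at 0.34 (SE 0.086), the smaller subunit of Ku, and Lig4 had -0.25 (SE 0.24), or -0.54 without tumor 4 of the irradiated heterozygote group. The call of Xrcc6 was lost in each of the 3 other fits.

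Of the 5 nucleotide excision genes 0 had a called positive slope, where 8.65% of all genes did, and 1 a negative one, where 3.06% did. With 5 genes these counts do not set the pathway apart from all genes. Ercc1, a subunit of the nuclease that cuts beside bulky damage, ran from 9.23 over 10.57 to 11.40 in sham and from 9.25 over 10.20 to 12.57 in irradiated tumors of wild-type hosts, and from 9.61 over 10.28 to 10.99 and from 8.93 over 10.44 to 11.85 in heterozygote hosts. Its 2 highest values belong to the 2 tumors of lowest score, 57 and 4. The averaged slope was -0.63 (SE 0.16, adjusted p = 0.00507), and -0.27 without those tumors (adjusted p = 0.451). With the 3' minus 5' difference as a covariate it was -0.21 (adjusted p = 0.541), so the call of Ercc1 was lost in both fits. Xpc had -0.19 (SE 0.12), Ddb1 0.02, Ddb2 0.18 and Xpa 0.13.

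**Figure D4:**
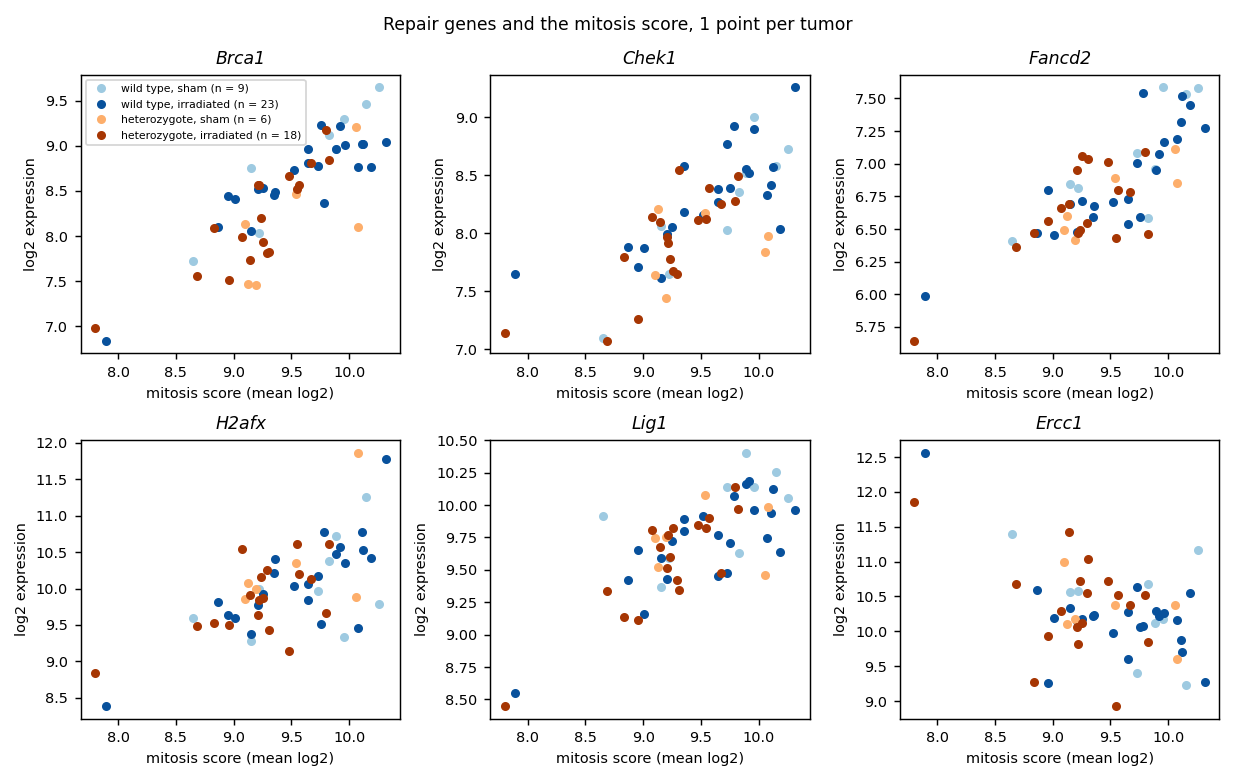
Log2 expression of 6 repair genes against the mitosis score (mean log2 of 28 mitosis genes), 1 point per tumor, coloured by host group. Brca1, Chek1, Fancd2, H2afx and Lig1 are higher at higher scores; the 2 tumors at scores of 7.80 and 7.89 are the lowest for Brca1, Fancd2, H2afx and Lig1 and the highest for Ercc1.

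Of 100 further genes of these pathways, 32 had a called positive averaged slope and 0 a negative one, where 8.65% and 3.06% of all genes did, with a median slope of 0.174. They were 10 of 19 for homologous recombination, 5 of 9 for the Fanconi pathway, 8 of 21 for checkpoints and 4 of 12 for base excision, 2 of 7 for mismatch and direct repair, 2 of 13 for nucleotide excision, 1 of 7 for end joining and 0 of 12 for translesion synthesis. The called positive slopes numbered 21 of 100 with the 3' minus 5' covariate (4.68% of all genes), 21 without the arrays of low 18S (5.22%) and 24 without tumors 57 and 4 (5.84%). Homologous recombination held 9 of 19 in each of those fits, and nucleotide excision 0 of 13 (with 1 called negative slope in the last). The lowest p belonged to Cdc25c, the phosphatase that starts mitosis (1.10), Ube2t, which ubiquitinates Fancd2 (0.87), and the recombination genes Rad54b (0.69) and Eme1 (0.67).

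The promoters of the genes with a called positive slope are shown because these genes moved together. RefSeq promoters of build GRCm38.p6, from 250 bases before to 50 after the start site, were matched for 37 of the 45 genes, 22 of them with a called positive slope and 15 others. The letters searched on both strands were those of the E2F family of cell cycle factors (TTTCCCGC, TTTGGCGC and TTTCGCGC), the CCAAT box bound by NF-Y, and the CHR element of mitotic genes (TTTGAA and TTCGAA). Capitals mark the matches, read on the strand of the gene, so that a match on the other strand appears as its reverse complement. Brca1, with the highest slope, is shown first, then Chek1, which held none of these letters, and then the 3 steepest genes with E2F letters.
Brca1, chr11:101551906-101552205, minus strand: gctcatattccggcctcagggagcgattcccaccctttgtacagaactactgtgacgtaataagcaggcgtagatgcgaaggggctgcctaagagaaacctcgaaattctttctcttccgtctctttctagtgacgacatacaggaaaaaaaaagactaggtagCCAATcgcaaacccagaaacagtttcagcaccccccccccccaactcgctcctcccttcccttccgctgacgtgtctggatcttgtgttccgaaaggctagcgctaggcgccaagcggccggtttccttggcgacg
Chek1, chr9:36726609-36726908, minus strand: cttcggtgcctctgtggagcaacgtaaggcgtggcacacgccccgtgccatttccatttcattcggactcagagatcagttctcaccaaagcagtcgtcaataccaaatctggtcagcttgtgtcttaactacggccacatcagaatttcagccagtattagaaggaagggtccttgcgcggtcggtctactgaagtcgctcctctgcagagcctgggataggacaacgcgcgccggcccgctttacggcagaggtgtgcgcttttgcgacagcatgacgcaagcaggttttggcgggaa
Topbp1, chr9:103305077-103305376, plus strand: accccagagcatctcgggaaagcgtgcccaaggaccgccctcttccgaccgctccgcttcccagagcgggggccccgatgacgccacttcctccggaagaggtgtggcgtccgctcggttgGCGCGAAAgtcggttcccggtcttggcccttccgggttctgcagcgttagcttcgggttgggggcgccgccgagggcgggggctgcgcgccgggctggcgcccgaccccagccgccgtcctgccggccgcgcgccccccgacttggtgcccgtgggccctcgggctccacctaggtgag
Lig1, chr7:13278576-13278875, plus strand: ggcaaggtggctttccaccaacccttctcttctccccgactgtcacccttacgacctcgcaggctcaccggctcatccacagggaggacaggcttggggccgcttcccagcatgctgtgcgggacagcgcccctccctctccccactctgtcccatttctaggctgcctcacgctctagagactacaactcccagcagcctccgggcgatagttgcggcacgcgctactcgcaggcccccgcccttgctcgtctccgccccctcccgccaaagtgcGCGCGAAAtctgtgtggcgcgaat
Chek2, chr5:110839733-110840032, plus strand: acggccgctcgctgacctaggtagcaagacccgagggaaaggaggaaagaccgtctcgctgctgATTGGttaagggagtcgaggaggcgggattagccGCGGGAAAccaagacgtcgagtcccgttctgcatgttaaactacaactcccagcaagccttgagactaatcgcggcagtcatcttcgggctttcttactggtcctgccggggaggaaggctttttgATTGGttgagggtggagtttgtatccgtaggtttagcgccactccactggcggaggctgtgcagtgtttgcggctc

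Only the exact letters were counted. The Chek1 promoter ends in gcgggaa, which is GCGGGAAA, E2F letters of the other strand, without the last base, and was not counted. In Brca1 the CCAAT letters begin at -86 from the start site. The E2F letters begin at -129 in Topbp1, at 27 in Lig1 and at -152 in Chek2, where CCAAT letters also stand on the other strand at -186 and -26. The other Lig1 promoters, which start at chr7:13276925 and chr7:13279015, held none of the letters searched. In the counts below a gene held letters if any of its promoters did, with 26 promoters for the 22 genes. Over all 22 genes with a called positive slope, 7 (31.8%) held E2F letters, among them Brca2, Rad51c, Xrcc6 and Msh6. Of the 10 genes with a promoter that were called in all 4 fits, 3 did, Topbp1, Lig1 and Rad51c. Of the 15 others 1 did (6.67%), Mdc1, the adaptor that binds marked H2afx, and of all 27025 genes with a promoter of that length 2.12% did. CCAAT was present in 12 of 22 (54.5%), 8 of 15 (53.3%) and 41.1% of all, and CHR letters in 1 of 22, 1 of 15 and 21.7% of all. The median share of G and C was 59.8%, 61.5% and 52.7% in these sets. A match is a description of letters, not of binding.

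Partners in a complex were then compared across tumors, as deviations from their group means, for 18 pairs in each host genotype (36 relations, 100000 permutations within groups, two-sided, Benjamini-Hochberg adjusted over the 36). In wild-type hosts (32 tumors) 5 pairs passed by Pearson's r, of which Mre11a with Nbn and Atr with Topbp1 did not pass by rho (adjusted permutation p = 0.179 for both). They were Brca1 with Bard1 (r = 0.628, rho = 0.641, permutation p = 0.00015, adjusted 0.0054), Fancd2 with Fanci (r = 0.609, rho = 0.592, permutation p = 0.00033, adjusted 0.00594) and Mre11a with Nbn (r = 0.543, rho = 0.323, permutation p = 0.00092, adjusted 0.0110). Atr with Chek1 (r = 0.567, rho = 0.525, permutation p = 0.00202, adjusted 0.0145) and Atr with Topbp1 (r = 0.567, rho = 0.342, permutation p = 0.00194, adjusted 0.0145) were the others. Bard1 is the dim probe set that failed the filter. Without the 2 tumors farthest in the first gene, r was 0.469, 0.628, 0.425, 0.395 and 0.365 in that order. With the probe set of largest variance both Atr pairs turned negative (-0.232 and -0.167). In heterozygote hosts (24 tumors) no pair passed, and the same pairs had r of 0.413, 0.542, 0.327, 0.306 and 0.381.

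These correlations were smaller within the part that the mitosis score did not carry. With the slope on the score removed, r in wild-type hosts was -0.116 for Brca1 with Bard1, 0.167 for Fancd2 with Fanci, 0.152 for Mre11a with Nbn, 0.287 for Atr with Chek1 and 0.289 for Atr with Topbp1. Over all 990 pairs of the 45 genes, the median r was 0.239 in wild-type and 0.173 in heterozygote hosts, and 0.0589 and 0.0344 with that slope removed, as a description with no test. Xrcc1 with Lig3, the scaffold and the ligase it binds, had r = 0.397 in wild-type hosts (adjusted permutation p = 0.101, rho = 0.489 with 0.0426), 0.481 without the 2 farthest tumors and 0.566 with the slope removed. The 2 subunits of the UV damage sensor, Ddb1 and Ddb2, went in opposite directions, with r = -0.446 in wild-type hosts (rho = -0.528, permutation p = 0.0106 for r and 0.00269 for rho, adjusted 0.0531 and 0.0206) and -0.408 in heterozygote hosts (rho = -0.345). Without the 2 farthest tumors these were -0.441 and -0.293. Parp1 with Parp2 in wild-type hosts also passed by rho only (r = 0.495, adjusted permutation p = 0.0531, rho = 0.523 with 0.0206). Its r was 0.366 without the 2 farthest tumors and 0.252 with the slope removed. Xrcc4 and Lig4, which form 1 complex, had r of -0.0830 and -0.00622.

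The 45 genes also differed in how far single tumors departed from their group. The SD within groups was largest for Lig4 (0.85), Ercc1 (0.65), H2afx (0.62), Xrcc5 (0.62) and Ddb2 (0.59), and smallest for Pms2 (0.21), Xpa (0.24) and Xrcc1 (0.24). Tumor 57 of the irradiated wild-type group held the lowest value of its group for 25 of the 45 genes, tumor 46 of the wild-type sham group for 21 and tumor 4 of the irradiated heterozygote group for 17. Each has the lowest mitosis score of its group. Tumor 16, with the highest mitosis score of the irradiated wild-type group (10.32), held the highest value for 15 genes.

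In 21 cases a gene lay more than 1.5 (log2) from its group median in a tumor, over 12 genes. The nearest measured genes on the chromosome, 5 to each side, were read in the same tumors, an examination chosen after the values were seen. In 6 of the 21 cases (28.6%) at least 6 of the 10 neighbours lay more than 1 (log2) from their own group medians on the same side, where this held for 4.2% of such values over all genes. Of these 6 cases 4 were Lig4, and the others Mre11a and Wrn.

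Lig4 reached 10.88 in tumor 51 of the irradiated heterozygote group, against a group median of 7.58, and 10.06 in tumor 50 of the same group. It reached 10.15 in tumor 61 of the wild-type sham group and 9.69 in tumor 11 of the irradiated wild-type group. The neighbours were high in each of these tumors, with 7, 6, 7 and 6 of 10 more than 1 above their group medians. In tumor 51 the adjacent gene Abhd13 was 3.08 above its median, and Irs2, an adaptor of the insulin receptor, 4.31 above. Lig4 lies on chromosome 8, as does Wrn, which in tumor 11 reached 8.52 (1.55 above its median) with 7 of 10 neighbours more than 1 above theirs. Mre11a, on chromosome 9, reached 10.55 in tumor 6 of the irradiated heterozygote group, 2.29 above its median, and 9 of its 10 neighbours were more than 1 above theirs, with a median of 2.44. Hephl1 was 5.16 and Vstm5 4.78 above. DNA copy number was not measured in these files, and its part in these values was not tested.

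In the other 15 cases at most 4 of 10 neighbours lay more than 1 away on the same side, the highest count being that around Rad51c in tumor 16 of the irradiated wild-type group (8.97, 1.67 above its median, with a median of 0.92 for the neighbours). Ercc1 at 12.57 in tumor 57 was 2.37 above its median with 2 of 10 neighbours more than 1 above theirs, and Brca1 at 6.84 in the same tumor was 1.92 below its median (-1.92) with 1 of 10 neighbours more than 1 below. H2afx at 11.87 in tumor 58 of the heterozygote sham group was 1.83 above its median with 0 of 10.

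**Figure D5:**
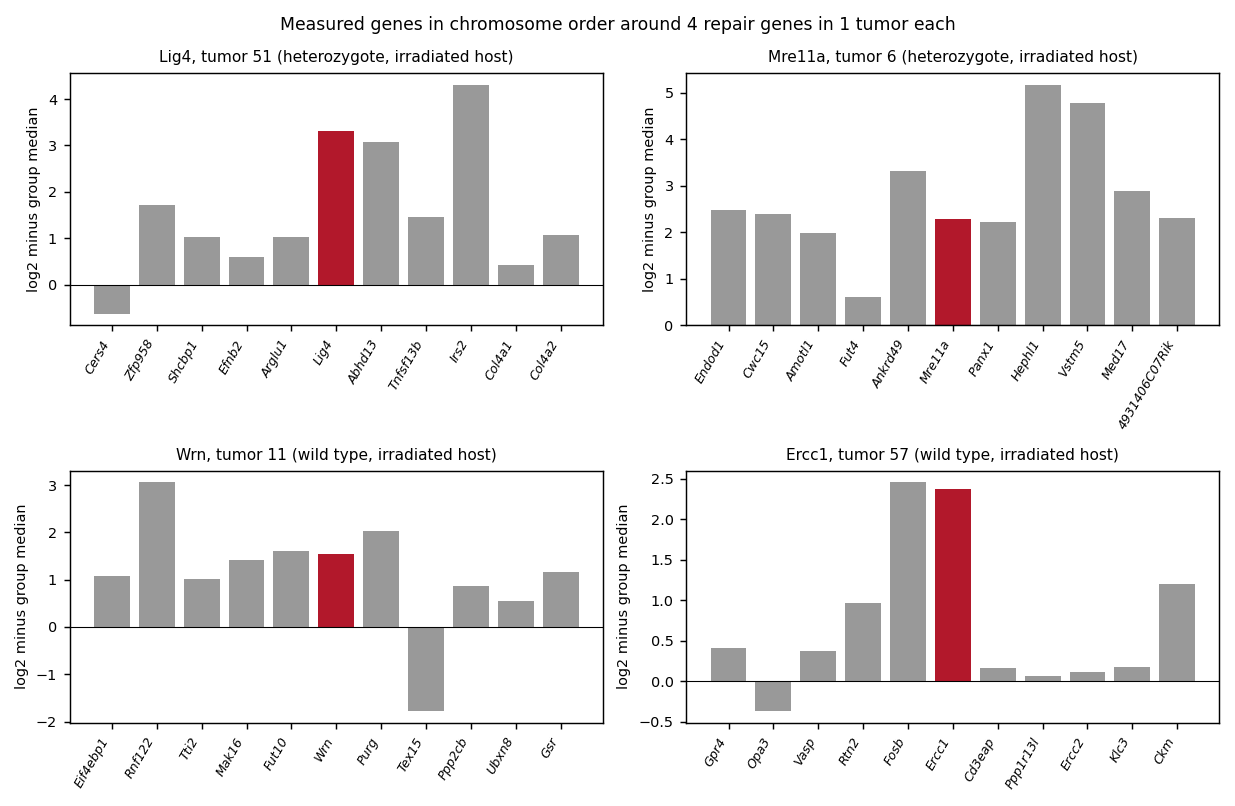
Log2 value minus group median of 4 repair genes (red) and the 5 measured genes to each side in chromosome order (grey), each in the tumor where the repair gene departs farthest. Around Mre11a all 10 neighbours are above their medians, around Lig4 and Wrn 7 of 10 are more than 1 above, and around Ercc1 2 of 10 are.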

How the data were processed

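Each of the 56 tumors has 1 array. The deposited tables hold 1 log2 value per probe set and array, which the authors obtained by RMA per the submitters' processing notes (version not given). The number of arrays limits the precision. Of 45101 probe sets, 34958 carry 1 gene symbol in the platform annotation, 932 several and 9211 none; only the first kind was used. Genes were kept if 6 or more arrays had a value above 5.83, the overall median, which left 12482 genes.

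The 47 genes and the gene lists were chosen with earlier results of these data known. Linear models with 4 group means over all 56 arrays were fitted with limma 3.58.1 (R 4.3.3, lmFit and eBayes), and p-values were adjusted by Benjamini-Hochberg over all genes with a threshold of 0.05. The contrasts were irradiated minus sham in each host genotype, their difference and their average. The slope on the mitosis score (centred within groups) was fitted per host genotype in a second model, over 12454 genes, without the 28 score genes. The slope uses measured genes of the same arrays, so errors of an array enter both sides. Partner correlations used Python 3.11.15 and numpy 2.4.6. The highest correlation of 2 arrays was 0.990, so none were treated as 1 sample.

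In 10 simulations on 12482 genes, the averaged irradiation contrast recovered 65.5% of genes changed 1.5-fold and 87.6% of those changed 2-fold, with 2.3% false calls. Over the 10 simulations 1000 genes of each size were changed and 1567 calls were made, where the measured contrast gave 1 call. These shares therefore overstate the recovery of a gene changed alone. The averaged slope recovered 5.2% of slopes of 0.2 and 40.7% of slopes of 0.4, with 5.36% false calls. False calls were 9.2% in wild-type and 2.59% in heterozygote hosts for irradiation.

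Values are named for the 4 genes with the lowest p in each direction of each irradiation contrast, the 8 highest and 6 lowest averaged slopes, the 5 largest and 3 smallest SDs, and every gene called. Others named were chosen after their values were seen. Alternatives were no filter or a stricter filter, the probe set of largest variance, quantile normalization of all arrays, trended and robust eBayes, array weights, covariates (3' minus 5' difference, 18S, epithelial and mitosis scores), a replication score, and each tumor left out. Fits without arrays of low 18S and without the tumor of lowest mitosis score in each host genotype were added after seeing the data. Promoters came from RefSeq, and neighbours from the order of genes in the GRCm38.p6 annotation, since the files name no build.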

Additional observations from a re-analysis of the deposited data

Results flagged for a closer look

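In the sham groups of 9 and 6 tumors, the highest or lowest value of a gene was compared with its nearest neighbour, and the gap divided by the range of the group (Dixon's ratio). Of 90 such groups of values 7 passed the 95% critical value, and chance passes about 5% of them. In the wild-type sham group the highest value stood apart for Atm in tumor 60 (9.71, next 8.77), Trp53bp1 in tumor 17 (11.81, next 11.20), Xrcc4 in tumor 3 (8.47, next 7.90) and Lig4 in tumor 61 (10.15, next 7.88). In the heterozygote sham group it stood apart for H2afx in tumor 58 (11.87, next 10.36) and Pms2 in tumor 15 (8.47, next 7.96), and the lowest value of Lig4 stood apart in tumor 58 (6.08, next 7.14). Without any 1 of the 56 tumors, host irradiation still gave 0 called genes among the 45.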

How the results depend on the processing

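No paired analysis was possible because tumor numbers do not recur across groups. The 4 irradiation contrasts and the difference of slopes gave 0 of 45 calls under every alternative run. The count of called slopes in wild-type hosts (23) was 14 without arrays of low 18S and 16 to 25 with 1 tumor left out, lowest without tumor 57 of the irradiated wild-type group. In heterozygote hosts (11) it was 7 with the 3' minus 5' covariate, 5 without arrays of low 18S, 7 without the tumor of lowest mitosis score in each host genotype, and 5 to 13 with 1 tumor left out, lowest without tumor 4 of the irradiated heterozygote group. Averaged (27), it was 14 without arrays of low 18S, 14 without the tumors of lowest score, and 19 to 29 with 1 tumor left out, lowest without the same tumor 4. Of the 36 partner correlations (5 passed), 1 passed with the mitosis slope removed, 9 with the epithelial slope removed, 2 with the probe set of largest variance and 1 without the 2 farthest tumors.

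Uncalled averaged slopes near 0 changed sign. Trp53bp1 had -0.012 after quantile normalization, -0.027 on the replication score and -0.017 to 0.15 with 1 tumor left out. Ogg1 had 0.15 with the probe set of largest variance, 0.0017 after quantile normalization, 0.011 with the 3' minus 5' covariate and -0.11 to 0.0010 with 1 tumor left out. Lig3 had 0.094 with the probe set of largest variance. The cause was not tested. Over 62 values of single genes, 4209 of 4243 alternatives kept the direction and the side of the threshold, 14 lost the call, 7 gained one and 13 changed sign. These values were irradiation differences, none of them called, and the highest and lowest slopes. Most of the alternatives left out 1 tumor. The tally does not cover the called slopes between the highest and the lowest, so it does not measure how stable those calls are. Without arrays of low 18S, the called averaged slopes fell from 27 to 14 of the 45 genes.

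Groups are unequal (6 sham tumors of heterozygote hosts), arrays of the 2 host genotypes have separate distributions, and dim probe sets such as that of Bard1 lie near background.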
